A study of Mus musculus with 32 samples.

Results

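The costimulatory receptors of T cells described here are 10 genes of the 33654 in each table, taken by name: Tnfrsf9, Tnfrsf4, Tnfrsf18, Cd27, Cd28, Icos, Cd226, Cd2, Il2ra and Il2rb. All 10 had a row in every table. Their levels were followed in 15 RNA libraries of CD8 T cells, with 17 libraries of tumor cells as background. The tumor cells carry the label MMTV-PyMT breast cancer cells, a mouse model in which a promoter active in mammary epithelium drives a viral oncogene. CD8 T cells of the time course were taken at week 2, week 3 and week 4 of tumor development (n = 3 libraries each). The CD8 T cells of the hairpin set came from xenografts labelled shMogat1 (genotype label Mogat1 knockdown, n = 3) or shCTRL (genotype label WT, n = 3). Mogat1 encodes an acyltransferase of fat synthesis. Tumor cells had the same groups, with n = 3, 4 and 4 at weeks 2, 3 and 4 and n = 3 for each hairpin label. The labels give neither the age and strain of the animals nor whether a library is 1 animal, so p-values measure the spread between libraries, which may be technical.

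A T cell that meets its antigen needs further signals to divide, survive and keep killing. Receptors of the TNF receptor superfamily (4-1BB from Tnfrsf9, OX40 from Tnfrsf4, GITR from Tnfrsf18 and CD27) pass such signals through TRAF adaptors to NF-kB. CD28 and ICOS act through phosphoinositide 3-kinase, CD226 (DNAM-1) and CD2 are adhesion receptors that also signal, and the interleukin-2 receptor chains of Il2ra and Il2rb act through JAK kinases and STAT5. 4-1BB, OX40 and the Il2ra chain are known as receptors induced by activation, while CD27, CD28, CD2 and the Il2rb chain are present on many resting T cells.

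The values are TPM, in which reads are divided by gene length and each library is brought to the same sum. CD8 T cell libraries held an estimated 29.4 to 48.4 megareads in the time course and 33.3 to 45.3 in the hairpin set. Behind each receptor stood 284 to 61824 reads per CD8 T cell library of the time course and 362 to 20708 in the hairpin set. Cd3e, a chain of the T cell receptor complex, was at 469 to 866 TPM in the time course and at 434 to 489 TPM in the hairpin set. Cd8a and Cd8b1 summed to 1320 to 1914 TPM over all 15 libraries, against Cd4 at 0.584 to 18.8 TPM and Foxp3, which marks regulatory T cells, at 3.81 to 11.5 TPM. Mogat1 was not lower under the label shMogat1: it had 0.624, 0.146 and 0.531 TPM in tumor cell libraries so labelled, and was listed at 0 in all 3 tumor cell libraries labelled shCTRL. In CD8 T cells Mogat1 had 0.515, 0.577 and 0.208 TPM in libraries labelled shMogat1, against 0.208, 0.286 and 0.211 TPM in those labelled shCTRL. Directions between the hairpin groups below therefore rest on the labels as they stand.

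The start-site sequences below give the letters before annotated starts of some of the receptors. RefSeq (GRCm38.p6) gave windows for 5 of the 10 members, cut here to the 250 bases before each annotated start. Whole windows are shown where they hold no bases annotated as untranslated region (UTR): Il2ra, the upstream Tnfrsf9 start and Cd27. The downstream Tnfrsf9 window holds 81 such bases, and a stretch of it is shown. Both Tnfrsf9 windows lie inside the annotated span of the gene. Il2ra, Tnfrsf9 and Cd27 also had the largest changes between weeks 4 and 2 among members with a window. Capitals mark matches to the NF-kB consensus (Il2ra, and the stretch of the downstream Tnfrsf9 start) or to the NFAT core TGGAAA (upstream Tnfrsf9 start). Sequences run 5′ to 3′ on the gene's strand.
Il2ra, plus strand, chr2:11642542-11642791: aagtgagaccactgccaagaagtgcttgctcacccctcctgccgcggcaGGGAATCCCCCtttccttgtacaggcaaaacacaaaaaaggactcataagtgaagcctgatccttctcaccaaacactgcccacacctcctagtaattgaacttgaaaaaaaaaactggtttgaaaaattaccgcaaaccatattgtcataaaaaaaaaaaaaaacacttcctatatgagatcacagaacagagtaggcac
Tnfrsf9, upstream start, plus strand, chr4:150919905-150920154: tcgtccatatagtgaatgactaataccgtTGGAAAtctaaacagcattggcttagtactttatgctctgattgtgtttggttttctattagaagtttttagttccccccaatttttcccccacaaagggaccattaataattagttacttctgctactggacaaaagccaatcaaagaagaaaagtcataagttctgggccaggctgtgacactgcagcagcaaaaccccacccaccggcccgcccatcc
Tnfrsf9, downstream start, plus strand, chr4:150927947-150927976: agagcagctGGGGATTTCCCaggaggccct
Cd27, minus strand, chr6:125237028-125237277: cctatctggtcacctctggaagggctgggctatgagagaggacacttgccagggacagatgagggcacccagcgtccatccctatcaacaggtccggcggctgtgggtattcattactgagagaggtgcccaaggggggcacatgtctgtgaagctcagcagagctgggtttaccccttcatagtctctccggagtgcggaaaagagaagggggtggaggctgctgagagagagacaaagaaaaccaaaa
In the Il2ra window 2 overlapping NF-kB matches formed the capital run. The downstream Tnfrsf9 window held 2 NF-kB matches in the run shown, on both strands, plus 1 match to AP-1 (TGANTCA) and 1 to STAT (TTCNNNGAA). The Cd27 window held no match to NF-kB, AP-1, STAT, NFAT or CRE (TGACGTCA). Of the other windows, that of Tnfrsf4 held 1 NFAT match and that of Tnfrsf18 held 1 STAT match. These windows hold 166 (Tnfrsf4) and 158 (Tnfrsf18) UTR bases, and that of Tnfrsf18 runs past the start of its gene span. Both strands were searched. Over 32851 windows of this length, 3.90% held an NF-kB match, 6.75% AP-1, 7.02% STAT, 18.6% NFAT and 1.55% CRE. A match describes letters in a window only.

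Between weeks 2 and 4 the order of the receptor transcripts in CD8 T cells changed. At week 4 Tnfrsf9, Il2rb, Il2ra and Cd226 were higher than at week 2, and Cd27 and Cd2 were lower. Tnfrsf4 and Tnfrsf18 ended near their starting levels, and Cd28 and Icos were lower in the mean without passing the test. The test was limma over all genes, on log2(TPM + 1), with Benjamini-Hochberg adjusted p under 0.05. In week 4 against week 2, 6 of the 10 members passed (4 rose, 2 fell), while 17.5% of 13350 tested genes passed (10.3% higher, 7.18% lower). The count was 3 without week 2 replicate 2, which left Tnfrsf9, Cd27 and Il2ra. The libraries of weeks 4 and 2 did not overlap for 8 of 10 members, against 37.0% of tested genes. In week 3 against week 2, 0 of 10 members passed in limma, where 0.0449% of genes did, and 5 had an unadjusted p under 0.05. With array weights in limma, 4 passed (Tnfrsf9, Tnfrsf4, Cd27 and Icos). The shares of all genes under these looser rules are not given here. The counts of 5 and 4 therefore have no background beside them. In week 4 against week 3, 3 members passed (Tnfrsf4, Cd27 and Il2ra), where 2.67% of genes did. That count was 0 without week 3 replicate 3 or without week 4 replicate 3. It was 1 without week 3 replicate 1, week 3 replicate 4 or week 4 replicate 2. The median difference over all genes was 0.10 in week 3 against week 2 and -0.13 in week 4 against week 3, on the log2 scale. Values in TPM below are per library, in the order of the labels' replicate numbers.

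**Figure D1:**
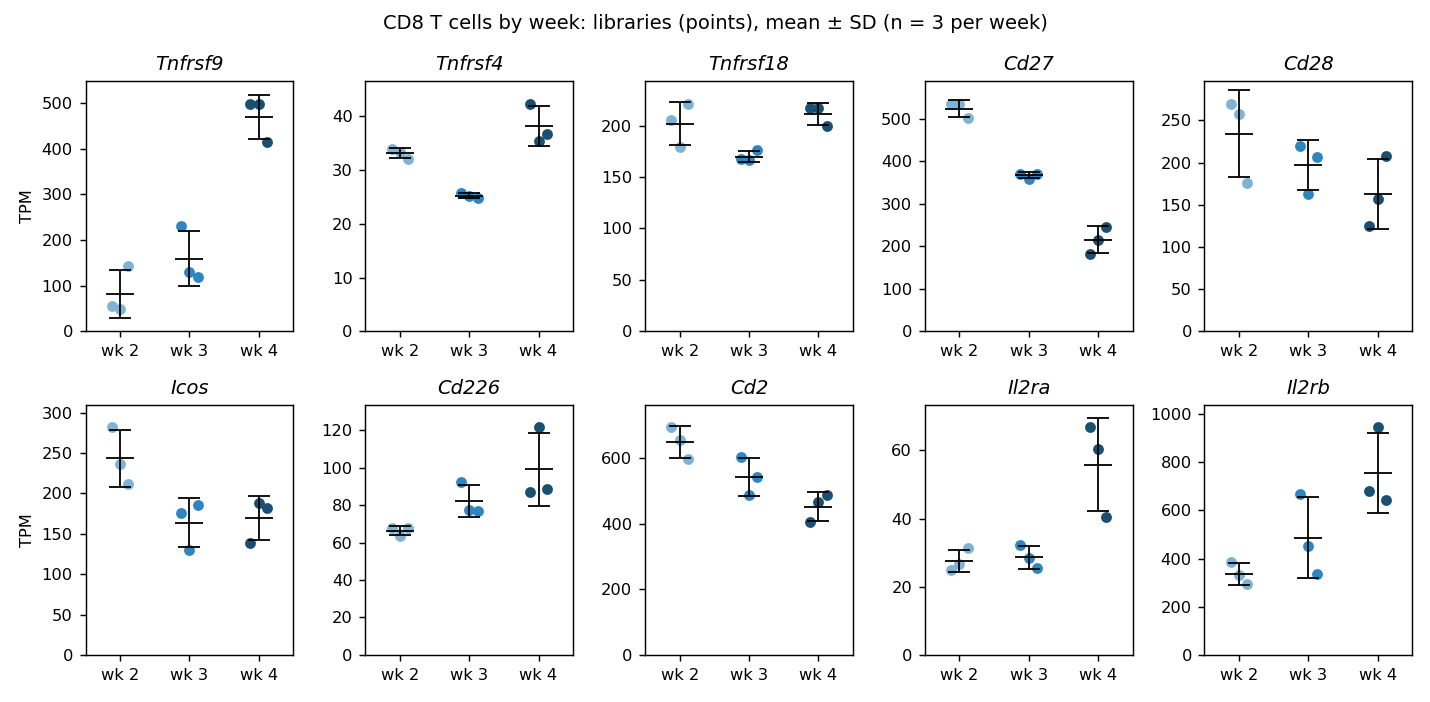
Receptor levels in CD8 T cell libraries (TPM, vertical axes from 0) at weeks 2, 3 and 4; points are libraries, lines the mean and bars the SD (n = 3 per week). Tnfrsf9 was highest in all 3 week 4 libraries (414 to 499 TPM) and Cd27 was lowest in them (183 to 246 TPM).

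Tnfrsf9 encodes 4-1BB, a receptor that supports survival and killing by CD8 T cells (chromosome 4, 150914562 to 150946102, plus strand). It had 54.2, 48.8 and 143 TPM at week 2, 229.9, 129 and 119 TPM at week 3, and 498, 499 and 414 TPM at week 4. Every week 4 library stood above every library of weeks 2 and 3, while week 2 replicate 3 lay inside the week 3 range. The mean was 5.73 times higher at week 4 than at week 2, a log2 difference of 2.68 (SE 0.39, limma adjusted p = 0.00401). That call held under all 20 alternatives, with log2 differences of 2.40 to 3.16. Week 4 against week 3 gave 1.61 (SE 0.39, limma adjusted p = 0.0616), and week 3 against week 2 gave 1.06 (SE 0.39, adjusted p = 0.281). Without week 2 replicate 3 the step between weeks 4 and 3 passed (limma adjusted p = 0.0143, range over alternatives 0.00406 to 0.214).

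Cd27, a receptor of naive and memory T cells, took the opposite course (chromosome 6, 125232622 to 125237010, minus strand). It had 534, 535 and 501 TPM at week 2, 371, 359 and 370.5 TPM at week 3, and 183, 216 and 246 TPM at week 4. The 3 weeks did not overlap. Cd27 fell by 1.29 on the log2 scale between weeks 4 and 2 (SE 0.11, limma adjusted p = 0.00121), to a mean 2.44 times lower at week 4, under all 20 alternatives. It fell by 0.78 between weeks 4 and 3 (SE 0.11, limma adjusted p = 0.0115). That second call ended without week 3 replicate 3 (limma adjusted p = 0.0568) and without week 4 replicate 3 (0.0515), in a range of 0.000594 to 0.0770 over alternatives.

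Tnfrsf4 and Tnfrsf18, neighbours on chromosome 4 with 9.551 kilobases between them, both dipped in the mean at week 3. Tnfrsf4 encodes OX40 (156013843 to 156016612, plus strand). Its libraries had 34.0, 33.5 and 32.1 TPM at week 2, 25.7, 25.2 and 24.7 TPM at week 3, and 42.4, 35.5 and 36.8 TPM at week 4. Each week was apart from the others, and week 3 was the lowest. Tnfrsf4 rose by 0.58 on the log2 scale in week 4 against week 3 (SE 0.10, limma adjusted p = 0.0252), and its differences of week 4 (0.19, adjusted p = 0.212) and week 3 (-0.38, adjusted p = 0.24) from week 2 did not pass. The call ended without week 3 replicate 1 (limma adjusted p = 0.0668), 3 (0.112) or 4 (0.0890) and without week 4 replicate 2 (0.0751) or 3 (0.0724), in a range of 0.00282 to 0.132. Tnfrsf18 encodes GITR (156026164 to 156028895, plus strand). It had 205, 179 and 221 TPM at week 2, 168, 166 and 176 TPM at week 3, and 217, 217 and 199 TPM at week 4, so that weeks 4 and 2 overlapped and week 3 lay below both. None of its 3 differences passed, and the difference of week 4 from week 2 was 0.07 with a 95% interval of -0.15 to 0.29.

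Among the receptors of the immunoglobulin superfamily, Cd226 and Cd2 went opposite ways. Cd226 encodes DNAM-1, which binds CD155 and CD112 on target cells. It had 68.0, 63.6 and 68.0 TPM at week 2, 92.3, 77.5 and 77.2 TPM at week 3, and 87.1, 122 and 88.7 TPM at week 4. All libraries of weeks 3 and 4 stood above those of week 2, and weeks 3 and 4 overlapped. Cd226 rose in week 4 against week 2 by 0.55 on the log2 scale (SE 0.14, limma adjusted p = 0.0285). The call ended without week 2 replicate 1 (limma adjusted p = 0.0797), week 2 replicate 2 (0.0954) or week 4 replicate 3 (0.0728), in a range of 0.00105 to 0.0954. Cd2, a receptor for CD48 in the mouse (chromosome 3, 101275899 to 101287939, minus strand), had 693, 655 and 597 TPM at week 2, 602, 487 and 542 TPM at week 3, and 404, 465 and 488 TPM at week 4. Week 4 lay below week 2 with no overlap, and week 3 overlapped both. Cd2 fell by 0.52 (SE 0.11, limma adjusted p = 0.0174). That call ended without week 2 replicate 1 (limma adjusted p = 0.0727), week 2 replicate 2 (0.0602) or week 4 replicate 2 (0.0551), in a range of 0.00154 to 0.0727.

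Cd28 and Icos are neighbours on chromosome 1 (60716800 to 60773359 and 60977927 to 61000320, both plus strand). CD28 is the receptor for CD80 and CD86, and ICOS is its inducible relative. Cd28 had 269.8, 258 and 176 TPM at week 2, 219.8, 163 and 207 TPM at week 3, and 125, 157 and 207 TPM at week 4. The weeks overlapped, and the difference of week 4 from week 2 was -0.53 (95% interval -1.02 to -0.03, limma adjusted p = 0.121). It passed without week 2 replicate 3 (limma adjusted p = 0.0409) and without week 4 replicate 4 (0.0477), in a range of 0.00567 to 0.349. Icos had 282, 237 and 212 TPM at week 2, 176, 129 and 186 TPM at week 3, and 138, 188 and 182 TPM at week 4. All libraries of weeks 3 and 4 lay below those of week 2. Its difference of week 4 from week 2 was -0.52 (95% interval -0.92 to -0.13, limma adjusted p = 0.0688), and it passed without week 2 replicate 3 (0.0499), in a range of 0.0183 to 0.2098.

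Both interleukin-2 receptor chains among the members rose. Il2rg, another chain of that receptor, had 691, 847 and 824 TPM at week 4, against 981, 912 and 858 TPM at week 2. It did not pass in limma. Il2ra encodes the chain that gives the receptor its high affinity (chromosome 2, 11642807 to 11693193, plus strand). It had 24.9, 26.5 and 31.3 TPM at week 2, 32.2, 28.4 and 25.5 TPM at week 3, and 66.8, 60.4 and 40.5 TPM at week 4, and the week 4 libraries stood above all others. Il2ra rose by 0.97 on the log2 scale in week 4 against week 2 (SE 0.19, limma adjusted p = 0.0108, under all 20 alternatives) and by 0.91 against week 3 (SE 0.19, adjusted p = 0.0389). The call against week 3 ended without 1 of 7 libraries: week 2 replicate 1 (limma adjusted p = 0.0562) or 2 (0.0612), week 3 replicate 1 (0.0668), 3 (0.143) or 4 (0.112), or week 4 replicate 2 (0.121) or 3 (0.138). Over its alternatives that adjusted p ran between 0.00186 and 0.143. Il2rb encodes the signalling chain shared with the interleukin-15 receptor (chromosome 15, 78479256 to 78495271, minus strand). It had 385, 329.9 and 294 TPM at week 2, 669.8, 453 and 336 TPM at week 3, and 681, 944 and 641 TPM at week 4. The week 4 libraries stood above those of week 2, and week 3 spanned the gap. Il2rb rose by 1.15 in week 4 against week 2 (SE 0.24, limma adjusted p = 0.0150). Without week 2 replicate 2 the adjusted p in limma was 0.0510, and without week 4 replicate 3 it was 0.0526, in a range of 0.00117 to 0.0526.

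In full, the order of the mean levels at week 2 ran Cd2, Cd27, Il2rb, Icos, Cd28, Tnfrsf18, Tnfrsf9, Cd226, Tnfrsf4 and Il2ra. Neighbours whose libraries overlapped there were Icos with Cd28, Cd28 with Tnfrsf18, and Tnfrsf9 with Cd226. At week 4 it ran Il2rb, Tnfrsf9, Cd2, Cd27, Tnfrsf18, Icos, Cd28, Cd226, Il2ra and Tnfrsf4. Overlapping neighbours at week 4 were Tnfrsf9 with Cd2, Cd27 with Tnfrsf18, Icos with Cd28, and Il2ra with Tnfrsf4. The 10 receptors together summed to 2630 ± 242 TPM at week 4, against 2398 ± 140 TPM at week 2 (SD, n = 3 each). Tnfrsf9 made up 18.0% of that sum at week 4 and 3.49% at week 2, and Cd27 made up 8.20% at week 4 and 21.9% at week 2.

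Other cell types were read from marker lists in the same libraries, where 17.5% of all tested genes passed in week 4 against week 2. Of 5 CD4 and regulatory T cell markers, 1 rose in week 4 against week 2 (Ikzf2, which encodes Helios, log2 1.85, limma adjusted p = 0.00398), and their sum was 75.7 to 114 TPM at week 4 against 38.3 to 51.3 TPM at week 2, with none at 0. Foxp3 had 7.24, 6.39 and 3.81 TPM at week 4, against 11.3, 11.5 and 5.86 TPM at week 2, and Cd4 had 5.57, 0.584 and 4.64 TPM, against 2.04, 10.9 and 3.95 TPM. Of 4 tested NK cell markers 1 rose, Klre1 (log2 1.40, limma adjusted p = 0.0138). The sum of the 5 NK cell markers was 31.9 to 56.6 TPM at week 4 and 18.9 to 26.9 TPM at week 2, with Klra8 at 0 in 1 week 4 library. Fibroblast markers summed to 43.8 to 53.8 TPM at week 4 and 97.7 to 667 TPM at week 2. Macrophage markers summed to 289.5 to 428 TPM at week 4 and 60.2 to 367 TPM at week 2. Of these 2 lists no marker passed. Of 6 epithelial markers 1 rose and 1 fell, with sums of 154 to 237 TPM at week 4 and 70.2 to 115 TPM at week 2, which did not overlap. Of 4 tested endothelial markers 2 fell, with sums of 29.4 to 75.4 TPM at week 4 and 103.6 to 139 TPM at week 2. Of 4 tested mast cell markers 2 fell, with sums of 0.324 to 0.949 TPM at week 4 and 2.00 to 34.6 TPM at week 2. No mast cell marker reached 1 TPM in a week 4 library, so those tested passed the filter on low values only through the earlier weeks. The count of mast cell markers that fell is thus partly fixed by the filter. Of 4 tested neutrophil markers 1 rose, with sums of 18.9 to 66.5 TPM at week 4 and 0.169 to 16.7 TPM at week 2. B cell markers (7.13 to 15.5 TPM at week 4, 13.7 to 102 TPM at week 2) and dendritic cell markers (10.2 to 33.6 TPM at week 4, 4.65 to 33.5 TPM at week 2) had none that passed. The part of these cells in the receptor differences was not tested. In bulk libraries, fewer cells of a type and less RNA per cell cannot be told apart. Of 6 CD8 T cell markers 2 rose and 1 fell in week 4 against week 2. Their sums were 4257 to 4819 TPM at week 4 and 3936 to 4185 TPM at week 2, which did not overlap. Of 11 T cell identity genes 3 rose and 3 fell. The part of T cell content in the receptor differences was not tested.

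The hairpin set asks how CD8 T cells differ between xenografts labelled shMogat1 and shCTRL. In the libraries labelled shMogat1, 8 receptors rose and Tnfrsf9 fell, so 9 of 10 members passed in limma, where 42.8% of 13742 tested genes did (16.6% higher, 26.2% lower). The median difference was 0.21 over the members and -0.05 over all genes, on the log2 scale. The largest rises were in the CD28 family and Il2ra. The libraries of the 2 labels did not overlap for 9 members, against 54.8% of tested genes, and the spread between libraries of a label was small.

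**Figure D2:**
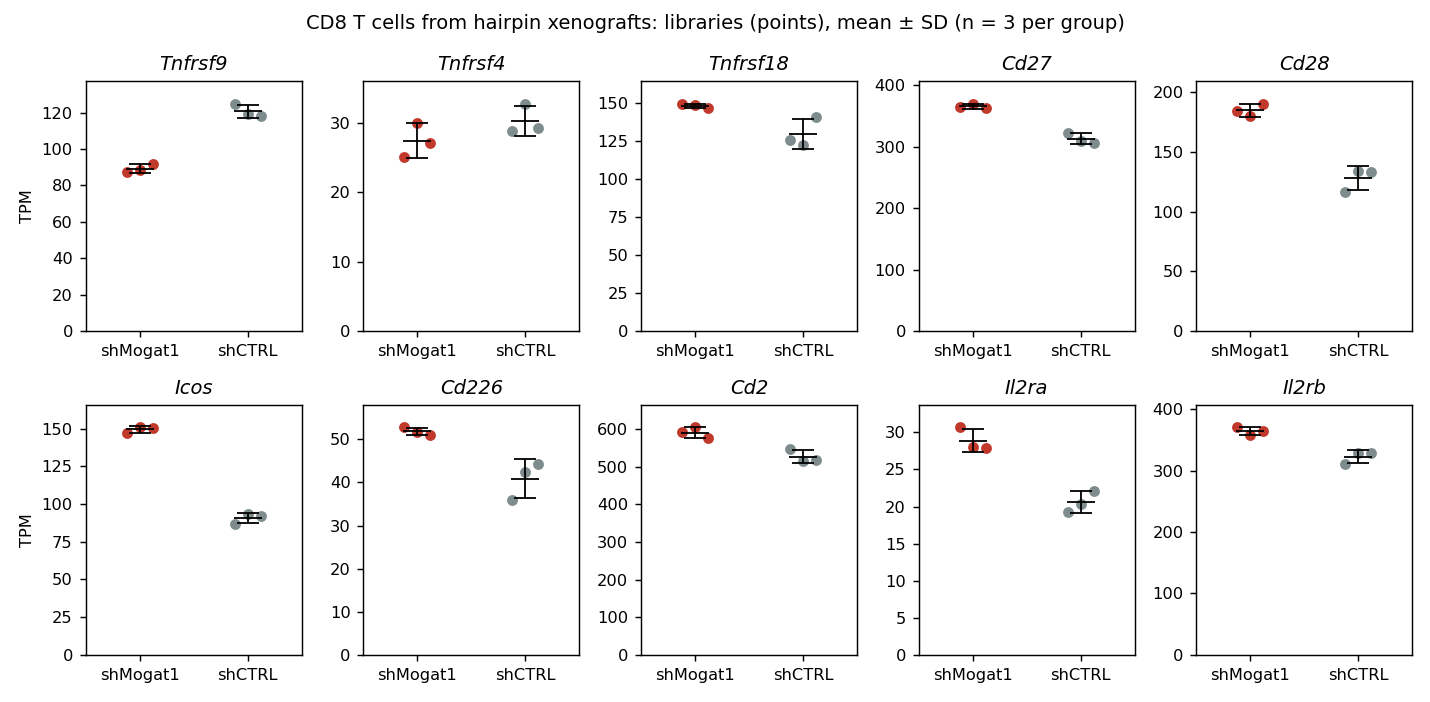
Receptor levels in CD8 T cell libraries (TPM, vertical axes from 0) of xenografts labelled shMogat1 (left in each panel) and shCTRL (right); points are libraries, lines the mean and bars the SD (n = 3 each). Icos, Cd28 and Il2ra were higher in all 3 libraries labelled shMogat1 and Tnfrsf9 was lower in all 3, at 87.5 to 91.9 TPM.

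Icos had 147, 151 and 151 TPM in libraries labelled shMogat1, against 87.0, 93.3 and 92.2 TPM in those labelled shCTRL. This was the largest difference of the 10, with no overlap and a log2 value of 0.71 (SE 0.04, limma adjusted p = 5.75e-06). Cd28 had 184, 179.9 and 190.3 TPM, against 116, 134 and 134 TPM under shCTRL, a log2 difference of 0.53 (SE 0.06, limma adjusted p = 0.000279). Il2ra had 30.7, 28.0 and 27.9 TPM, against 19.2, 20.3 and 22.1 TPM under shCTRL, and rose by 0.47 (SE 0.07, limma adjusted p = 0.00099). All 3 rose without overlap, and each call held under all 16 alternatives.

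Tnfrsf9 was the only member that fell. It had 87.5, 88.3 and 91.9 TPM in libraries labelled shMogat1, against 125, 119 and 118 TPM in those labelled shCTRL. The groups were far apart for their spread, and Tnfrsf9 fell by 0.43 on the log2 scale (SE 0.04, limma adjusted p = 7.29e-05), under all 16 alternatives. Tnfrsf4, its relative, had 25.0, 29.99 and 27.1 TPM under shMogat1, against 28.8, 32.7 and 29.2 TPM under shCTRL. These overlapped, and the difference of -0.14 had a 95% interval of -0.32 to 0.04 (limma adjusted p = 0.18).

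The other rises were smaller. Cd226 had 52.7, 51.7 and 51.0 TPM in libraries labelled shMogat1, against 35.8, 42.45 and 44.3 TPM under shCTRL, a log2 difference of 0.34 (SE 0.07, limma adjusted p = 0.00794). Cd27 had 364, 370.0 and 363 TPM, against 323, 310.1 and 306 TPM, and Il2rb had 370.1, 358 and 365 TPM, against 310.0, 329 and 328 TPM. Both stood higher in every library labelled shMogat1, by 0.22 (Cd27, SE 0.03, limma adjusted p = 0.000884) and 0.18 (Il2rb, SE 0.03, adjusted p = 0.0041). Cd2 had 591, 604 and 577 TPM, against 546, 514 and 518 TPM, and rose by 0.17 (SE 0.03, limma adjusted p = 0.00594). Tnfrsf18 had 149, 148 and 146 TPM under shMogat1, against 125, 122 and 140.4 TPM under shCTRL, and rose by 0.20 (SE 0.05, limma adjusted p = 0.0188). That last call ended without shMogat1 replicate 1 (limma adjusted p = 0.0589) or 2 (0.0530) and without shCTRL replicate 3 (0.0514), in a range of 0.00238 to 0.0657.

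Markers of other cells also differed between the hairpin labels in the CD8 T cell libraries, where 42.8% of all tested genes passed. Of the 5 CD4 and regulatory T cell markers 2 rose and 2 fell: Foxp3 rose to 10.9, 9.54 and 9.97 TPM under shMogat1, against 6.27, 6.24 and 6.97 TPM under shCTRL (log2 0.57, limma adjusted p = 0.000993). Cd4 fell to 12.3, 12.7 and 13.7 TPM, against 17.3, 18.8 and 17.8 TPM under shCTRL (log2 -0.45, limma adjusted p = 0.00104). The 5 summed to 50.2 to 53.0 TPM under shMogat1 and 52.2 to 57.6 TPM under shCTRL, with none at 0. Of the receptors that rose, Icos, Il2ra and Tnfrsf18 are also known from regulatory T cells, as are Tnfrsf9, which fell, and Tnfrsf4, which did not pass. Of 6 fibroblast markers 5 fell, with sums of 873 to 927 TPM under shMogat1 and 1833 to 1873 TPM under shCTRL. Of 8 macrophage markers 6 rose and 1 fell, with sums of 2278 to 2399 TPM under shMogat1 and 2071 to 2105 TPM under shCTRL. Of 6 epithelial markers 4 rose and 1 fell, with sums of 219 to 223 TPM under shMogat1 and 92.2 to 98.5 TPM under shCTRL. Of 4 tested NK cell markers 3 fell, with sums over 5 genes of 28.3 to 30.8 TPM under shMogat1 and 44.0 to 47.4 TPM under shCTRL, and of 6 dendritic cell markers 4 fell. The part of these cells in the receptor differences was not tested. Of 6 CD8 T cell markers 1 rose and 0 fell, with sums of 3250 to 3295 TPM under shMogat1 and 3182 to 3307 TPM under shCTRL. Of 11 T cell identity genes 3 rose and 1 fell. Cd8a and Cd3e were among those that did not pass (log2 -0.03 and 0.06, limma adjusted p = 0.521 and 0.338).

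**Figure D3:**
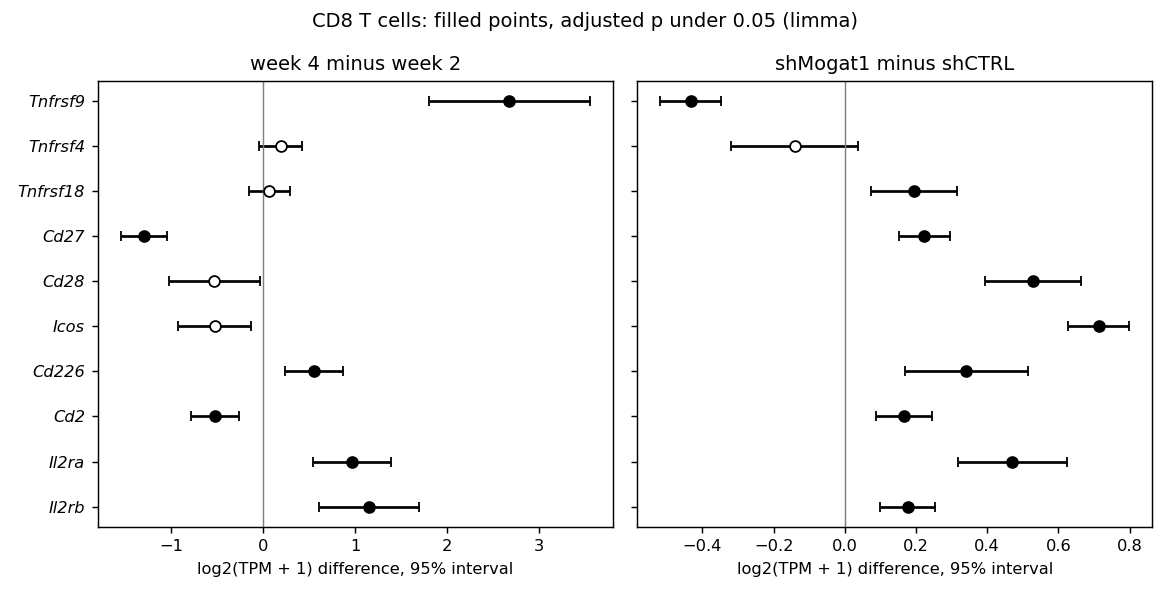
Differences of mean log2(TPM + 1) for the 10 receptors in CD8 T cells (horizontal axes), week 4 minus week 2 (left) and shMogat1 minus shCTRL (right); bars are 95% intervals and filled points passed limma at adjusted p under 0.05. Tnfrsf9 lies at 2.68 in the left panel and -0.43 in the right, and Cd27 at -1.29 and 0.22.

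The 2 comparisons share no library, so their values can be set side by side, although the tables were scaled apart and no test joins them. Tnfrsf9, Cd27 and Cd2 passed in both with opposite signs: 2.68 and -0.43 for Tnfrsf9, -1.29 and 0.22 for Cd27, and -0.52 and 0.17 for Cd2 (week 4 against week 2, then shMogat1 against shCTRL). Il2ra, Il2rb and Cd226 rose in both. As a description, Tnfrsf9 levels ran against Icos over the 6 hairpin libraries (Pearson r of -0.99) and against Cd27 over the 9 time-course libraries (-0.92), where the libraries of a group share its mean.

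The genes whose levels were most like each receptor were taken by the smaller of 2 Pearson correlations of log2(TPM + 1), over the 9 time-course and the 6 hairpin libraries. For Tnfrsf9 these were Klrb1f (0.98) and Clnk (0.97). For Cd226 they were Cd7 and Itgae (0.94 and 0.93), and Itgae, an integrin chain, was also nearest to Il2rb (0.97). For Il2ra they were Slc9b2 and the cytokine gene Lta (0.96 and 0.95). For Icos they were Ifngr1, which encodes a chain of the interferon-gamma receptor, and Gch1 (0.96 and 0.92). Cd27 was nearest to Acat2 (0.98), Cd28 to Pip4k2a (0.98), Cd2 to Maf1 (0.96), Tnfrsf18 to Crem (0.86) and Tnfrsf4 to Thoc7 (0.80). These are descriptions over libraries that share group means.

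Genes that work beside the receptors were counted from lists. Over all tested genes, 17.5% passed in week 4 against week 2 (10.3% higher, 7.18% lower). Between hairpin labels 42.8% passed (16.6% higher, 26.2% lower). Of 20 partner chains and adaptors, 0 rose and 1 fell in week 4 against week 2 in limma: Stat5a, a transcription factor of interleukin-2 signalling, had 35.6, 51.8 and 69.2 TPM at week 4, against 124, 136 and 86.0 TPM at week 2 (log2 -1.15, limma adjusted p = 0.0134). Between hairpin labels 6 of the 20 rose and 4 fell, near the share of all genes that passed. Stat5a had 96.3, 94.0 and 89.1 TPM under shMogat1, against 55.8, 58.6 and 60.4 TPM under shCTRL (log2 0.67, limma adjusted p = 2.34e-05). The median difference of this list was -0.23 in week 4 against week 2 and 0.05 between hairpin labels.

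Of 16 genes known to be induced by these receptors' signals, 3 rose and 1 fell in week 4 against week 2, where 17.5% of all genes passed. Cish, a STAT5 target that restrains cytokine signalling, had 75.4, 87.3 and 70.4 TPM at week 4, against 13.4, 14.4 and 21.2 TPM at week 2, with no overlap (log2 2.21, SE 0.24, limma adjusted p = 0.00174). Bcl2, a survival gene, rose by 1.26 (SE 0.11, limma adjusted p = 0.00121), and Mcl1, its relative, fell by 0.72 (SE 0.18, adjusted p = 0.0238). Between hairpin labels 9 of the 16 rose and 3 fell, where 42.8% of all genes passed (16.6% higher). Tnfaip3, an NF-kB target and inhibitor, rose by 0.59 (SE 0.03, limma adjusted p = 4.74e-06), Mcl1 rose by 0.28, and Myc fell by 0.43 (adjusted p = 0.000427). The list's median differences were 0.26 and 0.18, against -0.01 and -0.05 over all genes.

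Of 4 receptors that oppose CD28 or CD226, 3 rose in week 4 against week 2, namely Pvrig, Tigit and Cd96, which share ligands with CD226. Ctla4, which opposes CD28, had a log2 difference of 0.35 that did not pass (limma adjusted p = 0.214). Tigit had 287, 326 and 258 TPM at week 4, against 103, 78.7 and 101 TPM at week 2 (log2 1.62, SE 0.18, limma adjusted p = 0.00174). Pvrig had 31.8, 38.3 and 21.7 TPM at week 4, against 4.09, 3.24 and 5.61 TPM at week 2 (log2 2.56, SE 0.27, limma adjusted p = 0.00158). Between hairpin labels 3 of the 4 rose, with Ctla4 first, and Pvrig fell. Ctla4 had 256, 270.3 and 259 TPM under shMogat1, against 155, 172 and 173 TPM under shCTRL (log2 0.65, SE 0.05, limma adjusted p = 3.49e-05). Of 21 other costimulatory and cytokine receptors tested, 8 rose and 2 fell at week 4, led by Ly9 (log2 -0.84), Il12rb2 (1.80) and Slamf7 (1.09). Between hairpin labels 10 of 20 rose and 5 fell, led by Il21r (0.57), Tnfrsf1b (0.45) and Il7r (0.51). Over all genes 17.5% passed in week 4 against week 2 and 42.8% between hairpin labels.

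The tumor cell libraries served as background, and in them Cd8a and Cd8b1 stand for RNA of CD8 T cells. These summed to 11.7 to 30.7 TPM at week 2, 5.04 to 19.4 TPM at week 3, 0.38 to 5.02 TPM at week 4, 3.33 to 3.85 TPM under shMogat1 and 0.319 to 0.691 TPM under shCTRL. In week 4 against week 2 of tumor cells 8 of 10 members fell (all but Tnfrsf18 and Cd27), where 46.3% of 14770 genes passed in limma (17.1% lower). Cd226 stayed at or below 0.566 TPM at week 4, so it passed the filter on low values only through weeks 2 and 3. The count of 8 is thus partly fixed by the filter. The Cd226 call there ended without week 2 replicate 1 (limma adjusted p = 0.0764) or week 4 replicate 3 (0.0600), and Tnfrsf18 (0.0317) and Cd27 (0.0266) passed without week 2 replicate 2. In week 3 against week 2, 1 member fell (Icos, limma adjusted p = 0.0364), where 24.1% of genes passed. Any 1 of 6 libraries ended that call: adjusted p was 0.0922 and 0.0683 without week 2 replicates 1 and 2, and 0.0724, 0.0760, 0.0740 and 0.0560 without week 3 replicates 1 to 4. In week 4 against week 3, 2 members fell (Tnfrsf9 and Il2rb), where 13.7% passed. Between hairpin labels 6 members passed the filter on low values, and 5 of them rose under shMogat1, where 54.5% of 12936 genes passed (34.6% higher). Those were Tnfrsf18 (log2 1.33), Cd2 (1.26), Il2rb (0.86), Cd27 (0.70) and Tnfrsf4 (0.65). That count is partly fixed by the filter: Cd27 reached 1 TPM in the shMogat1 libraries alone, and Cd2 and Tnfrsf4 reached it in 1 and 2 shCTRL libraries. The 6 CD8 T cell markers summed to 9.68 to 10.4 TPM under shMogat1 and 1.43 to 2.72 TPM under shCTRL, and their part in these values was not tested. The count was 3 without shMogat1 replicate 1 or 2. The Tnfrsf4 call (adjusted p = 0.0184) ended without shMogat1 replicate 1 (limma adjusted p = 0.0622) or 2 (0.0641) or shCTRL replicate 4 (0.0590).

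**Figure D4:**
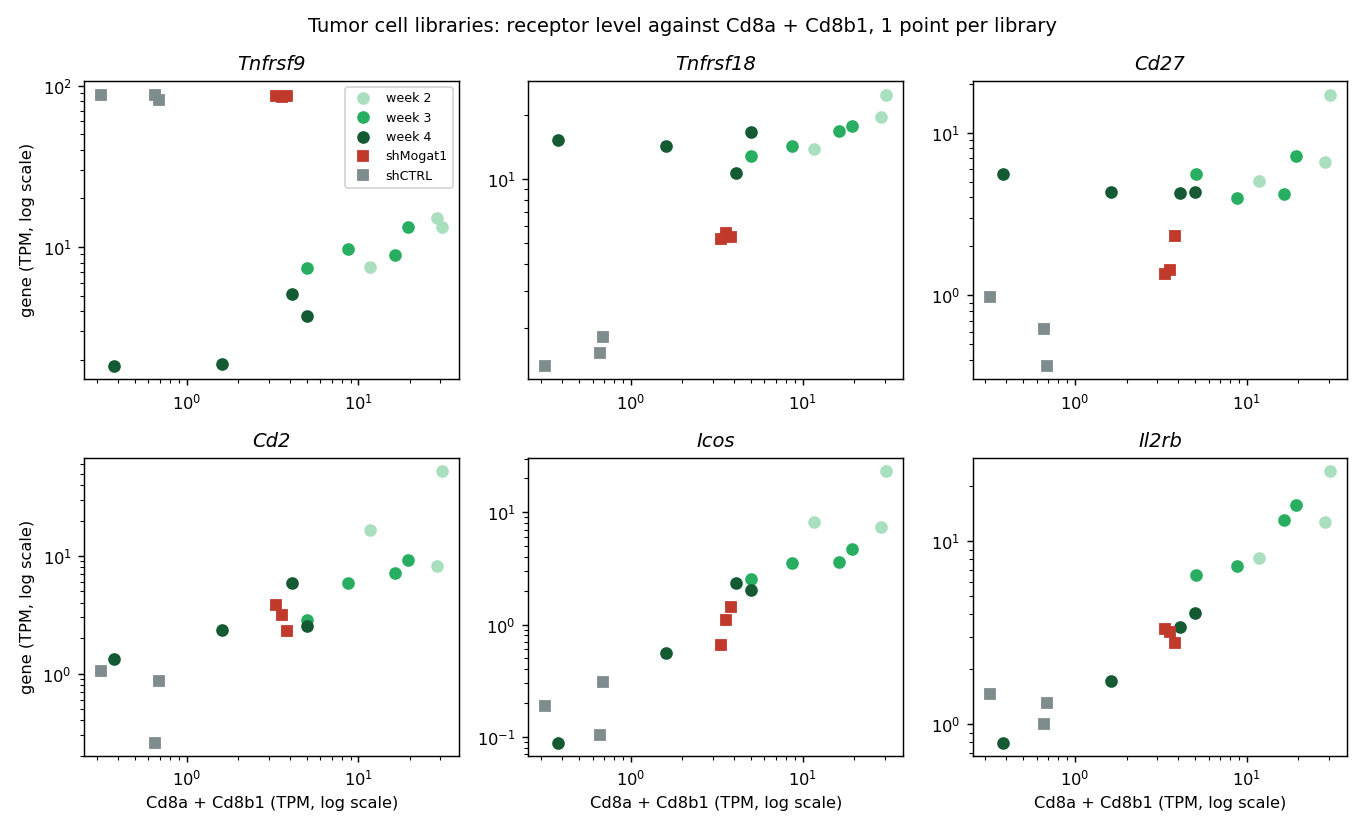
Levels of 6 receptors (TPM, log vertical axes) against the sum of Cd8a and Cd8b1 (TPM, log horizontal axes) in the 17 tumor cell libraries; each point is a library, circles by week and squares by hairpin label. Cd2, Icos, Il2rb, Tnfrsf18 and Cd27 are all highest in the library with the highest Cd8 sum. Tnfrsf18 and Cd27 stay at 10.7 to 16.7 and 4.26 to 5.57 TPM over the week 4 libraries, and Tnfrsf9 lies at 81.2 to 87.9 TPM in the hairpin libraries.

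Tnfrsf9 stood apart in the tumor cell libraries of the hairpin set. It had 84.4, 86.0 and 86.5 TPM under shMogat1, against 86.8, 81.2 and 87.9 TPM under shCTRL, from 2014 to 3028 reads per library. The groups overlapped, and the difference was 0.01 on the log2 scale with a 95% interval of -0.07 to 0.09 (limma adjusted p = 0.892). In the same libraries the next receptor, Tnfrsf18, was at 5.25 to 5.60 TPM under shMogat1 and 1.33 to 1.83 TPM under shCTRL. In tumor cells of the time course, a table scaled apart, Tnfrsf9 had 7.48 to 15.05 TPM at week 2, 7.39 to 13.4 TPM at week 3 and 1.84 to 5.09 TPM at week 4. As a share of the Cd8a and Cd8b1 sum, Tnfrsf9 was 6.53% to 9.13% in the CD8 T cells of the hairpin set, but at least 2250% in its tumor cell libraries. The NK cell markers of those tumor cell libraries summed to 16.7 to 18.1 TPM under shMogat1 and 60.2 to 64.7 TPM under shCTRL, nearly all of it Klra4, with Ncr1 at 0 in 2 of the shCTRL libraries. Epcam, an epithelial marker, was at 28.4 to 30.8 TPM under shMogat1 and 0.560 to 0.864 TPM under shCTRL. Tumor cells of the time course had 249 to 567 TPM. Epithelial markers summed to 939 to 980 TPM under shMogat1 and 202 to 217 TPM under shCTRL. Fibroblast markers summed to 2630 to 2706 TPM under shMogat1 and 4932 to 4973 TPM under shCTRL. The part of these cells in the Tnfrsf9 level was not tested.

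Tnfrsf18 and Cd27 were also present in tumor cell libraries of the time course with little Cd8 RNA. Week 4 replicate 3 had the lowest Cd8 sum of the time course, 0.38 TPM, and 15.3 TPM of Tnfrsf18 and 5.57 TPM of Cd27, from 201 and 104 reads. Cd28, Icos, Cd226 and Il2rb had 6, 4, 0 and 38 reads in the same library. Its Tnfrsf4 level was 1.72 TPM, close to the 1.76 to 2.17 TPM of the other week 4 libraries. Its Cd3e level was 7.13 TPM, above the 5.36 and 5.35 TPM of week 4 replicates 1 and 2, so Cd3e did not go with the low Cd8 sum. Week 2 replicate 1 was the highest library of the time course for 8 members, with 52.6 TPM of Cd2 and 23.2 TPM of Icos. In that library the Cd8 sum was 30.7 TPM and Cd4 was at 30.2 TPM, and B cell markers reached 171 TPM.

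The ligands of the receptors were read in both cell types, from 12 genes. In tumor cells the CD226 and TIGIT ligands Pvr (CD155) and Nectin2 (CD112) were the highest of the 12 at week 4. Pvr fell to 37.6 ± 6.71 TPM at week 4 (n = 4), against 73.9 ± 20.7 TPM at week 2 (SD, n = 3; log2 -0.94, limma adjusted p = 0.0121). Nectin2 rose to 33.9 ± 2.06 TPM, against 23.3 ± 9.32 TPM (log2 0.59, limma adjusted p = 0.0265). Cd80, a ligand of CD28 and CTLA4, had 17.2, 10.6 and 8.80 TPM at week 2, 6.01, 7.84, 7.23 and 5.86 TPM at week 3, and 1.49, 2.07, 0.630 and 1.48 TPM at week 4, with no overlap between weeks. It fell by 2.43 on the log2 scale (SE 0.25, limma adjusted p = 3.50e-05), and Cd86, Cd48 and Il15 fell too. Macrophage markers in the same libraries summed to 168 to 1122 TPM at week 4 and 564 to 2495 TPM at week 2. Of 10 ligands tested in week 4 against week 2, 1 rose and 5 fell, where 46.3% of all genes passed (29.2% higher, 17.1% lower).

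**Figure D5:**
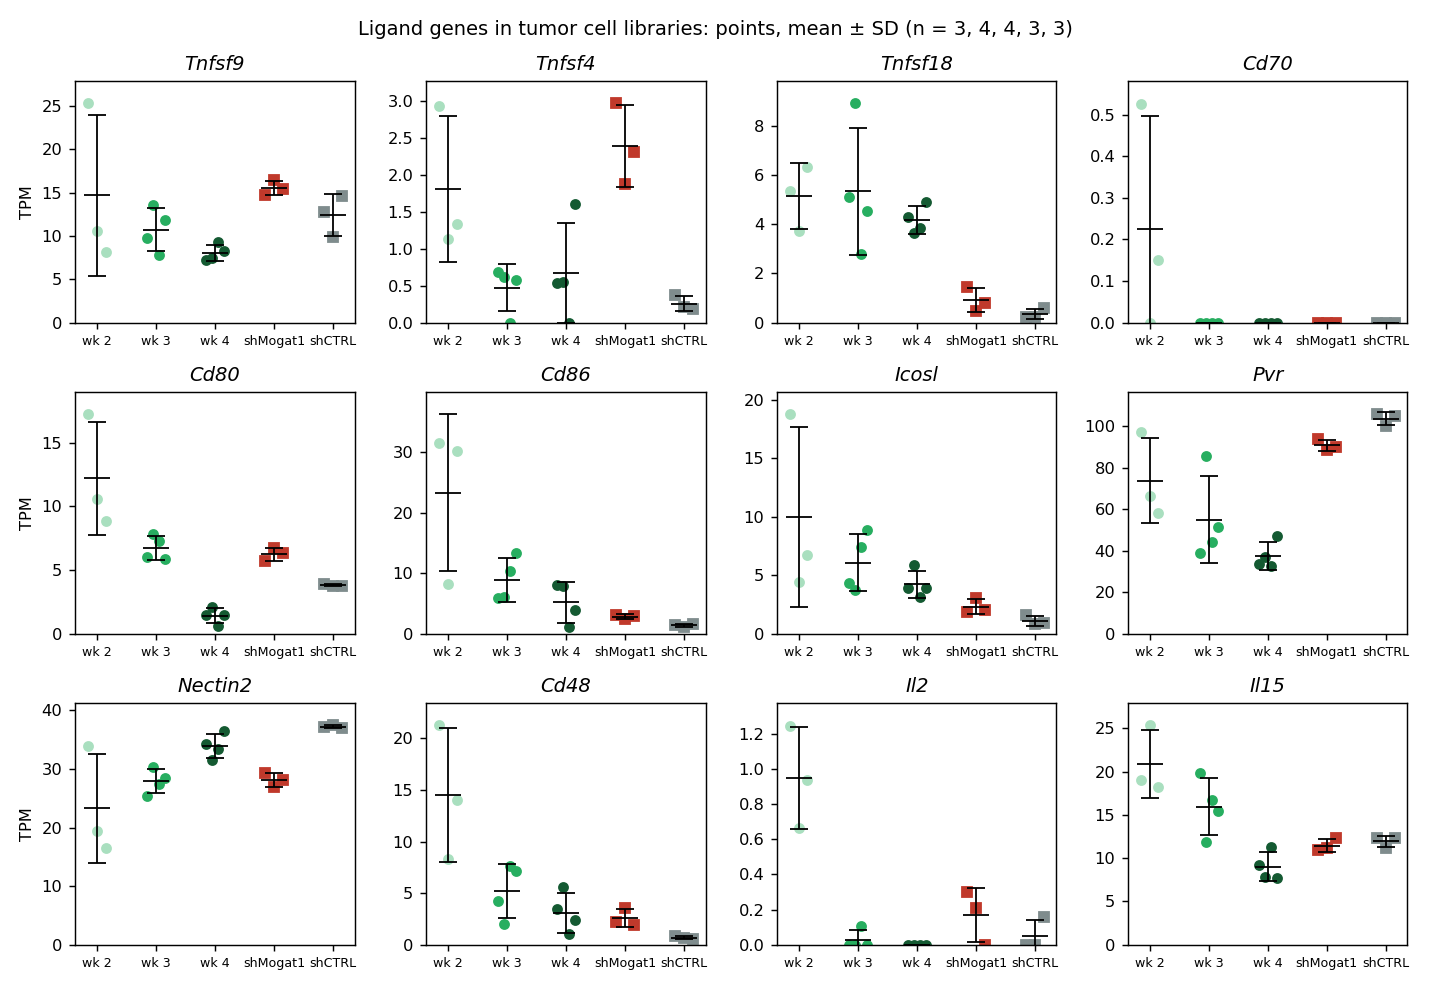
Ligand genes in tumor cell libraries (TPM, vertical axes from 0) at weeks 2, 3 and 4 and under shMogat1 and shCTRL; points are libraries, lines the mean and bars the SD (n = 3, 4, 4, 3 and 3). Cd80 is lowest at week 4 (0.630 to 2.07 TPM), and Pvr is at 88.8 TPM or more in all 6 hairpin libraries.

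Between hairpin labels, 5 of 9 ligands tested in tumor cells rose and 2 fell, where 54.5% of all tested genes passed (34.6% higher, 19.9% lower). Tnfsf4 and Cd48 reached 1 TPM in the shMogat1 libraries alone, so that count is partly fixed by the filter. Tnfsf4, the OX40 ligand, had 2.97, 1.87 and 2.31 TPM under shMogat1, against 0.377, 0.205 and 0.184 TPM under shCTRL (log2 1.42, SE 0.15, limma adjusted p = 0.000119). Nectin2 fell to 29.4, 26.9 and 28.1 TPM, against 37.3, 37.5 and 37.0 TPM under shCTRL (log2 -0.39, SE 0.04, limma adjusted p = 8.5e-05). Pvr fell by 0.19 (SE 0.03, limma adjusted p = 0.00158), and Tnfsf9, the 4-1BB ligand, did not pass (0.32, adjusted p = 0.0622). Cd70, the CD27 ligand, was listed at 0 in all 6 of these libraries. Epithelial and fibroblast marker sums also differed between these labels, and the part of cell content in the ligand values was not tested.

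In the CD8 T cell libraries themselves, 3 of 11 ligands rose in week 4 against week 2 and 0 fell in limma. Over all genes 17.5% passed there (10.3% higher, 7.18% lower). Tnfsf4 had 15.2, 12.04 and 15.5 TPM at week 4, against 3.76, 3.88 and 8.68 TPM at week 2 (log2 1.32, limma adjusted p = 0.0177). Tnfsf9 had 11.6, 16.5 and 11.7 TPM, against 4.10, 6.68 and 8.51 TPM (log2 0.97, limma adjusted p = 0.0250), and Cd70 had 2.63, 2.99 and 1.52 TPM, against 0, 0.168 and 0.813 TPM (log2 1.37, adjusted p = 0.0164). Each stood higher in every week 4 library. Cd70 reached 1 TPM in the week 4 libraries alone, so it passed the filter only through the group where it was high. The count of rises is thus partly fixed by the filter. Between hairpin labels 1 of 11 rose and 6 fell, where 42.8% of all genes passed (16.6% higher, 26.2% lower). Tnfsf4 had 7.58, 6.22 and 6.32 TPM under shMogat1, against 17.4, 17.9 and 17.8 TPM under shCTRL (log2 -1.28, limma adjusted p = 1.68e-05). In tumor cells Tnfsf4 was higher under shMogat1, but there it passed the filter only through the shMogat1 libraries.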

How the data were processed

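Stranded mRNA libraries of 15 CD8 T cell and 17 tumor cell samples were used from 4 tables of TPM values, as the authors deposited them. FastQC, Trim Galore, HISAT2 and the mm10 build are named in the submitters' processing notes; the read counter, annotation and tool versions are not given in the sources used here. Each table had 33681 rows, of which 27 with a date in place of a symbol were left out (at most 0.184% of TPM). The tables were scaled apart, so tests stay within a table.

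Each table was fitted with limma 3.58.1 in R 4.3.3 (lmFit, eBayes with trend) on log2(TPM + 1), for genes with 1 TPM or more in at least 3 libraries. All groups of a table shared 1 fit. P-values were adjusted by Benjamini-Hochberg over all tested genes, with 0.05 as threshold. Log2 differences on this scale understate changes of low genes. Read numbers were recovered from the steps between TPM values, whole to within 0.05 for 14787 genes; they describe depth, entered no test and cover counting error only. Library totals rest on these and on a length constant from 458 of 1028 single-exon genes. The script was tested on simulated data.

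Alternatives were pseudocounts of 0.1 and 5, other filters and scalings, array weights, eBayes without trend, 2-week fits, a block on replicate number, and leaving out each replicate. Members and gene lists were chosen with earlier results of these data known. Named genes are all members and ligands, at most 3 genes of every other list by adjusted p, the genes most like each member, Il2rg, and sorting checks. Gene positions are from GENCODE M21 on GRCm38. Python 3.11.15 with pandas 2.3.3, numpy 2.4.6 and matplotlib 3.10.9 made tables and plots.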

Additional observations from a re-analysis of the deposited data

Results flagged for a closer look

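In the groups of 4 libraries, 20 sets of values were examined for a library far from the others, and 1 was found, where chance gives about 1 in 20. It was Cd27 in tumor cells, where week 4 replicate 3 had 5.57 TPM and the other 3 week 4 libraries had 4.26 to 4.34 TPM.

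Several receptors moved one way in every CD8 T cell library of week 4 against week 2 and the other way in every tumor cell library. The difference between the cell types was not tested. Libraries of these weeks did not overlap for 37.0% of tested genes in CD8 T cells and 45.0% in tumor cells. The share of genes apart in opposite directions was not counted. The log2 differences of CD8 T cells and tumor cells were 2.68 and -1.67 for Tnfrsf9, 0.19 and -1.83 for Tnfrsf4, 0.55 and -1.01 for Cd226, 0.97 and -1.81 for Il2ra, and 1.15 and -2.19 for Il2rb. The difference of Tnfrsf4 in CD8 T cells did not pass in limma (adjusted p = 0.212). In tumor cells Cd226 passed the filter on low values only through weeks 2 and 3. In week 4 against week 3 the same was seen for Tnfrsf9, with 1.61 in CD8 T cells and -1.44 in tumor cells, also not tested against each other. There 32.7% of tested genes in CD8 T cells and 29.4% in tumor cells had no overlap. The sum of Cd8a and Cd8b1 in the tumor cell libraries was 0.38 to 5.02 TPM at week 4, against 11.7 to 30.7 TPM at week 2, and its part in the tumor cell values was not tested.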

How the results depend on the processing

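Of 1463 values of members under the alternatives, 1357 kept their direction and their side of the threshold, 57 lost a call, 35 gained one and 14 changed sign, all of values that had not passed. With array weights the count was 4 in place of 0 (CD8 T cells, week 3 against week 2), 7 in place of 3 (CD8 T cells, week 4 against week 3), 5 in place of 8 (tumor cells, week 4 against week 2), 0 in place of 1 (tumor cells, week 3 against week 2) and 6 in place of 2 (tumor cells, week 4 against week 3). In tumor cells of week 3 against week 2 it was also 0 with a pseudocount of 0.1, 0 without a filter, and 4 with median-of-ratios or quantile scaling. With a filter of 5 TPM it was 5 in tumor cells of week 4 against week 2, and 1 in place of 5 between hairpin labels, since fewer members were tested. Between hairpin labels in tumor cells it was 8 without a filter and 3 with quantile scaling. The share of all genes that passed under each alternative is not given here.

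Leaving out 1 replicate gave 3 to 8 members past the threshold in CD8 T cells of week 4 against week 2, 0 to 4 in week 4 against week 3, 8 to 9 between hairpin labels, and in tumor cells 7 to 10, 0 to 2, 2 to 3 and 3 to 5 (week 4 against week 2, week 3 against week 2, week 4 against week 3, hairpin labels). Signs changed for Il2ra in CD8 T cells of week 3 against week 2 (-0.047 with median-of-ratios, -0.037 with quantile scaling, -0.030 to 0.14 leaving out 1 replicate), Icos in CD8 T cells of week 4 against week 3 (-0.0066 scaled to CD3 and CD8 genes, -0.11 to 0.19 leaving out 1 replicate) and Tnfrsf9 in tumor cells between hairpin labels (-0.065 with median-of-ratios, -0.029 to 0.028 leaving out 1 replicate). Leaving out 1 replicate also changed the sign of Tnfrsf18 in CD8 T cells of week 4 against week 2 (-0.015 to 0.14), and of Cd27 (-0.23 to 0.012) and Tnfrsf18 (-0.19 to 0.0084) in tumor cells of week 4 against week 3. The causes were not tested.

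No label says that replicate numbers pair samples. Deviations of same-numbered CD8 T cell libraries of the time course correlated at -0.24 to 0.43, and those of differently numbered libraries at -0.43 to 0.45. With a replicate block, members past the threshold were 4 in CD8 T cells of week 4 against week 2 (Cd226 at adjusted p = 0.0502 and Cd2 at 0.0558 were lost), 0 in week 4 against week 3, 8 between hairpin labels (Cd2 lost, 0.0939), and 2 in tumor cells of week 3 against week 2. Depth limits little in CD8 T cells, with at least 284 reads per member and library; in tumor cells it went down to 0.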

Other observations

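The receptors of the CD8 T cell libraries were also set against the sum of Cd8a and Cd8b1. Tnfrsf9 stood at 24.7% to 29.3% of that sum at week 4, against 3.33% to 9.79% at week 2, and at 6.53% to 6.65% in libraries labelled shMogat1, against 8.79% to 9.13% in those labelled shCTRL. Cd27 stood at 9.55% to 14.7% at week 4, against 33.2% to 36.6% at week 2. Icos stood at 10.9% to 11.2% under shMogat1, against 6.36% to 7.07% under shCTRL. Cd226, apart between these weeks in TPM, overlapped on this scale, at 4.55% to 7.13% at week 4 against 4.23% to 4.64% at week 2, and Cd8a itself rose in week 4 against week 2 (log2 0.59, limma adjusted p = 0.01).

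The order of mean levels in CD8 T cells under shMogat1 was Cd2, Cd27, Il2rb, Cd28, Icos, Tnfrsf18, Tnfrsf9, Cd226, Il2ra and Tnfrsf4, where Cd27 overlapped with Il2rb, Icos with Tnfrsf18, and Il2ra with Tnfrsf4. Under shCTRL it was Cd2, Il2rb, Cd27, Tnfrsf18, Cd28, Tnfrsf9, Icos, Cd226, Tnfrsf4 and Il2ra, where Il2rb overlapped with Cd27, Tnfrsf18 with Cd28, and Cd28 with Tnfrsf9. Swaps within these pairs are inside the spread between libraries. The 10 receptors summed to 2000 ± 9.89 TPM under shMogat1 and 1722 ± 8.50 TPM under shCTRL (SD, n = 3 each).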
